A study of Homo sapiens with 20 samples.

Results

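The m6A regions around stop codons are the 4390 of the 43676 merged MeRIP-seq regions (10.1%) whose position lay in an exon of a protein-coding canonical transcript and within 200 genomic bases of that transcript's stop codon. The position of a region is the median summit of all peaks, from any library, that overlap it, so no level or comparison between lines entered the choice. The canonical transcripts were those marked in GENCODE on hg38. The regions belonged to 4372 genes, of which 18 had 2 or more such regions, and 42 regions lay near the stop codons of more than 1 gene. At 334 of them an exon of another gene was also present at the position, and since the peak lists carry no strand, these can belong to either gene.

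MeRIP-seq pulls down fragmented RNA with an antibody against N6-methyladenosine (m6A), sequences the pull-down (IP) and calls peaks over an input library of the same RNA. T24, a human bladder cancer line that is sensitive to cisplatin, was compared with T24R2, a resistant line made from T24 by serial exposure to the drug, with 5 IP and 5 input libraries of each line. Both lines carried the genotype label WT and were harvested under the same day 3 label. The labels name no treatment of either line in this experiment, T24R2 was otherwise maintained in cisplatin, and as a lone derived line it does not let line and drug history be told apart.

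The 10 IP libraries each had a list of MACS2 peaks, between 17203 and 33120 per library, and the inputs entered only through those calls. The lists hold no read counts, so the depth of each library is unknown and its effect on calls was not tested. Of the 14 urothelial and epithelial marker genes, 6 had an exonic region in the merged list: the uroplakin UPK1A, KRT7, KRT18, GATA3, PPARG and FOXA1. The other 8 had none: CDH1, KRT5, KRT8, KRT14, KRT20 and the uroplakins UPK1B, UPK2 and UPK3A. Of 4 mesenchymal markers, 3 had one, and FN1 had none. A missing region is not a level of expression. The labels do not say whether replicates came from separate cultures, so the p-values measure only the spread between these libraries, which may be technical.

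m6A is the most common internal modification of messenger RNA. It is deposited during transcription by a complex built around METTL3 and METTL14 at adenines in the DRACH context (A, G or T, then A or G, then the methylated A, then C, then A, C or T), is bound by YTH-domain readers that act on decay and translation, and can be removed by FTO and ALKBH5. In many mammalian transcriptomes the mark is concentrated in long internal exons and in the last exon near the stop codon, and exon junctions close to a site are known to limit deposition.

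The sequences below are reference windows of at most 30 bases (hg38, 5′ to 3′ on the transcript strand). The first set holds the regions whose strength differed most between the lines, with the DRACH match nearest to the region's position in capitals. TRPS1 and PAQR7, which also differed, have no window here.
AFAP1L2: gttaaagcaaAAACTatgcgaaagg
ADAMTS1: tcatgttctaAGACCtgtgggaagg
ZDHHC14: acggtggagaTGACAgccccaggtc
SP5: aagcacgtcaAGACTcaccagaata
THSD1: cgcgttttgtAGACTtttgtgtaac

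These lie at chr10:114295957-114295981 (minus strand), chr21:26837704-26837728 (minus), chr6:157673221-157673245 (plus), chr2:170717324-170717348 (plus) and chr13:52377343-52377367 (minus). The second set holds regions called in every library of 1 line and in none of the other, KCTD15 and SLC9A9 in T24R2 and IFNLR1 and CLDN3 in T24, with the nearest DRACH match in capitals.
KCTD15: gcctgcagaaGGACTgttgatgcga
SLC9A9: aagtaatgcaAGACTcactgaggaa
IFNLR1: cagaaattgaGGACAgcgatgcggg
CLDN3: acgaccgcaaGGACTacgtctaagg

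They lie at chr19:33813130-33813154 (plus), chr3:143266649-143266673 (minus), chr1:24157203-24157227 (minus) and chr7:73769385-73769409 (minus). The third set holds 3 of the strongest regions in both lines and SLC7A11, the study's main gene, again with the nearest DRACH match in capitals. The match is GGACT in NRG2, GFOD1 and CDK13, but not in the other strongest regions named further below. It is TGACA in WDR91, AGACC in LRFN1, GAACT in MAP3K9 and GGACA in BLOC1S3, and ZBTB7B has no window here.
NRG2: gggccaagcaGGACTcggcgccact
GFOD1: agaacctcggGGACTtgagccttct
CDK13: ggacagacctGGACTtctcctgccc
SLC7A11: atgaactaatGGACTtgagatcttg

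They lie at chr5:139847921-139847945 (minus), chr6:13364709-13364733 (minus), chr7:40094873-40094897 (plus) and chr4:138171935-138171959 (minus). The central A of the match lay 14 bases upstream of the stop codon in NRG2 and 9 bases downstream of it in SLC7A11. In the last set the stop codon itself is in capitals, to show how a DRACH match can share bases with it.
DTX4: caggagaaggacTGAggccagaaaagc
NIPAL1: agaactgatgacTGAagtctctagaaa
KLHL28: ttaactgcacttTGAcaaatgtgaact
LRIG3: gacttggacacaTAGactgaatgagac

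They lie at chr11:59204895-59204921 (plus), chr4:48036158-48036184 (plus), chr14:44929016-44929042 (minus) and chr12:58872560-58872586 (minus). The match sharing bases with the stop codon is GGACT in DTX4, TGACT in NIPAL1, TGACA in KLHL28 and AGACT in LRIG3.

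Regions were densest close to the stop codon on both sides. Within the 200-base window there were 1366 regions per exonic megabase, against 783 from 201 to 1000 bases upstream and 370 from 201 to 1000 bases downstream. The fullest 50-base bins were the one from 100 to 51 bases upstream, with 637 regions or 1599 per megabase, and the one just downstream of the stop codon, with 684 regions or 1506 per megabase. The density then fell to 189 per megabase at 951 to 1000 bases downstream. The window's edge was no break: 295 regions lay 181 to 200 bases away and 281 lay 201 to 220 bases away.

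**Figure D1:**
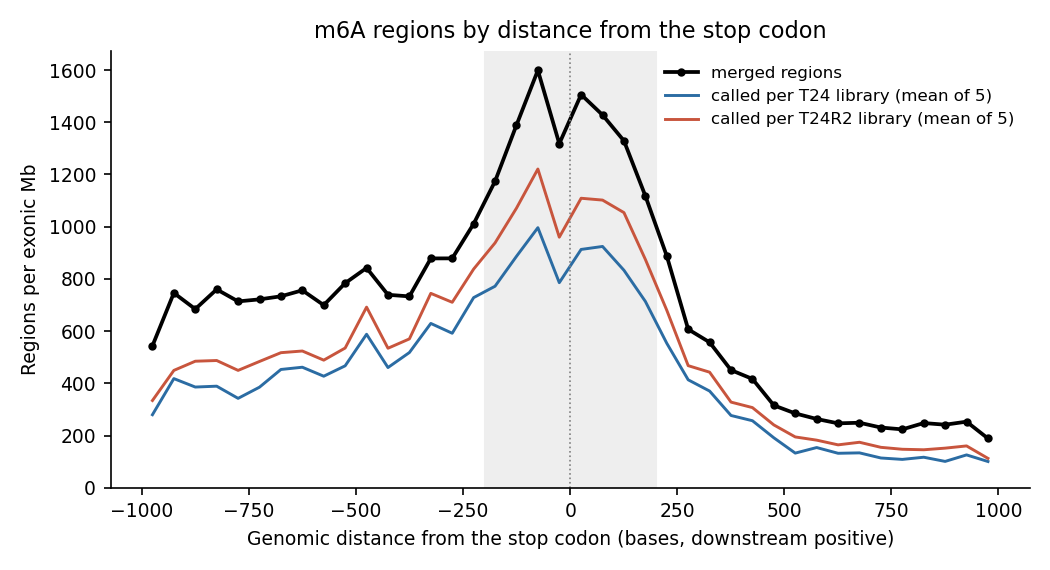
Merged m6A regions per exonic megabase (black) and the mean number called per library and megabase in T24 (blue) and T24R2 (red), in 50-base bins of genomic distance from the stop codon, with the 200-base window shaded. The density is highest in the bin from 100 to 51 bases upstream, at 1599 per megabase, and the T24R2 curve lies above the T24 curve in every bin.

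The rule kept positions up to 200 bases to either side of the stop codon. Within that window the median distance was 16 bases downstream, with quartiles at 70 bases upstream and 98 bases downstream. A total of 2380 lay in the 3′UTR, 1974 in the CDS and 36 in the stop codon itself. The median region was 446 bases wide, and 3714 regions (84.6%) spanned the stop codon. Nearly all, 4334 (98.7%), had their position in the last exon.

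The transcripts that carried such a region differed in structure from those that did not. The stop codon was in the last exon in 98.7% of the 4370 transcripts with a stop-codon region, in 94.5% of the 4938 transcripts with regions only elsewhere and in 94.5% of the 10276 with none. It lay within 100 bases of the start of its exon in 15.3%, 29.5% and 32.7% of them. The median distance from the start of that exon to the stop codon was 199, 159 and 140 bases. The median 3′UTR was 1673, 1526 and 601 bases long. The stop codon was TGA in 52.0%, 49.2% and 48.2%, and TAA in 25.2%, 28.8% and 29.3%. These are descriptions with no test, and transcripts with a region are also those expressed well enough to give one. The rule needed an exonic position within 200 genomic bases of the stop codon. A stop codon close to either end of its exon thus left less sequence in which a region could qualify. How much of the contrasts in structure comes from the rule was not tested.

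DRACH was common in the windows and more common on the transcript strand. Of windows reaching 50 bases to each side of the region's position, 93.9% of the stop-codon regions held at least 1 match on the sense strand and 72.4% on the antisense strand, where matches may overlap. The 15569 other regions in the CDS or 3′UTR had 88.3% and 73.0%. GGACT was the DRACH form most enriched on the sense strand of the stop-codon regions, present in 19.4% against 6.88% on the antisense strand. TAACA stood lowest there, with 6.17% against 5.06%. In the other regions GGACT was present in 15.6% against 8.09%, and AGACC was the most enriched form, with 12.6% against 5.69%. A match is a description and not a mapped site.

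Stop codons without a region differed in the same windows. Within 50 bases of the stop codon itself, the sense strand held GGACT in 17.4% of the transcripts with a stop-codon region, in 9.98% of those with regions only elsewhere and in 10.2% of those with none, against 8.51%, 9.21% and 8.48% on the antisense strand. The nearest sense DRACH lay within 10 bases of the position in 48.2% of the stop-codon regions. Sense matches ranged only from 2.40 to 3.04 per 100 bases over the bins around the position, and no such share was computed elsewhere. Whether DRACH is centred on the position was therefore not tested. A DRACH match shared bases with the stop codon in 29.5% of the transcripts with a stop-codon region, as in the 4 windows of DTX4, NIPAL1, KLHL28 and LRIG3, and in 24.7% and 23.9% of the other transcripts. Among the 611 regions within 25 bases of the stop codon it was 195 (31.9%).

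**Figure D2:**
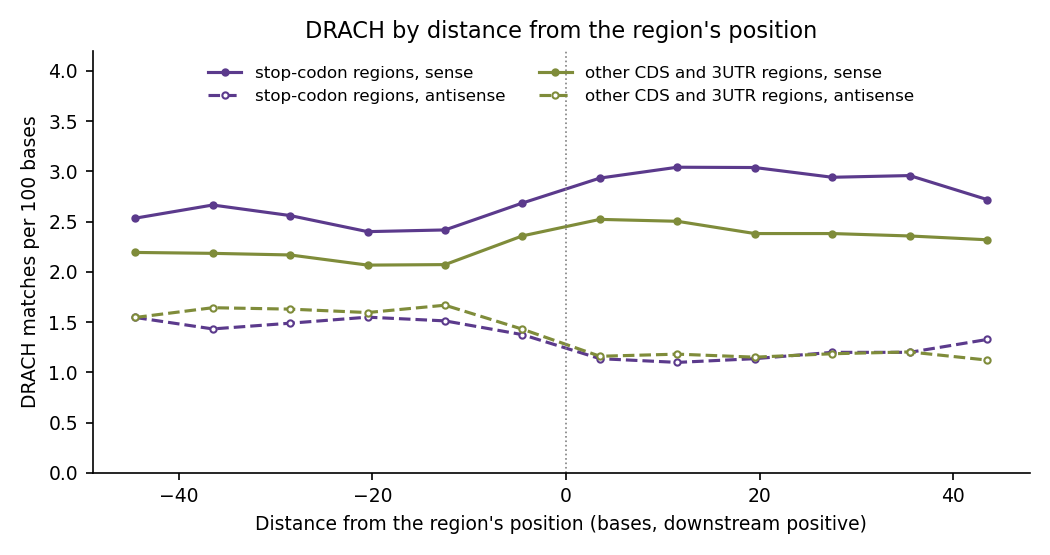
DRACH matches per 100 bases in 8-base bins of distance from the region's position, for stop-codon regions (purple) and other CDS and 3′UTR regions (green), on the sense strand (solid) and the antisense strand (dashed). Sense matches of stop-codon regions reach 3.04 per 100 bases just downstream of the position, against 1.099 on the antisense strand.

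The pull-down lists gave the same order in every library. Around each library's own strongest summit, the sense share minus the antisense share with DRACH was 22.4 percentage points for stop-codon regions and 17.5 for the other CDS and 3′UTR regions, a difference of 4.83 ± 1.13 (SD over 10 libraries) that was positive in 10 of 10 (two-sided exact sign-flip test over libraries, p = 0.00195, adjusted p = 0.00313 over 8 such differences). For GGACT the difference was 4.10 ± 0.350, also positive in 10 of 10 (exact sign-flip p = 0.00195, adjusted 0.00313). The smallest p that 10 libraries can give in this test is 0.00195.

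Stop-codon regions were called in more libraries than other regions. A library called 69.4% of them on average and 56.9% of the other CDS and 3′UTR regions, a difference of 12.6 ± 3.30 percentage points (SD, n = 10) that was positive in 10 of 10 libraries (exact sign-flip p = 0.00195, adjusted 0.00313). Peaks were called in all 10 libraries at 1967 stop-codon regions (44.8%), against 21.9% of all regions, 35.0% of the 3945 more distal 3′UTR regions and 31.1% of the 11624 other CDS regions. Only 521 (11.9%) were called in a single library, against 27.9% of all regions. Their peaks were also wider, with a median 49.0 ± 21.9 bases above that of the other CDS and 3′UTR regions (SD, n = 10), again in 10 of 10 libraries (exact sign-flip p = 0.00195, adjusted 0.00313).

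Their fold enrichment stood between that of the CDS and that of the distal 3′UTR. Fold enrichment is the IP level over the local input level at the peak, as MACS2 gives it, and each region took its strongest peak. To set libraries side by side, regions were ranked by fold within each library and given a percentile, with 100 the strongest. The median stop-codon region stood at percentile 51.3, the other CDS regions at 47.0 and the distal 3′UTR regions at 54.3. The difference was 4.32 ± 3.18 points from other CDS regions (SD, n = 10, positive in 10 of 10, exact sign-flip p = 0.00195, adjusted 0.00313). It was −2.99 ± 1.505 points from distal 3′UTR regions (positive in 0 of 10, exact sign-flip p = 0.00391, adjusted 0.00521). Against both classes pooled it was 2.21 ± 2.53 points (positive in 7 of 10, exact sign-flip p = 0.0234, adjusted 0.0268), but this difference moved with the settings. It was 0.293 when only peaks with −log10 q of at least 10 were kept (exact sign-flip p = 0.539), 0.810 in a 100-base window (exact sign-flip p = 0.371) and 4.375 in a 300-base window (exact sign-flip p = 0.00195).

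Among the stop-codon regions called in all 10 libraries, those with the highest mean percentile are given as a description, since they were picked for it. The 8 were in NRG2, a neuregulin ligand of ErbB receptors, GFOD1, WDR91, which acts in endosome maturation, LRFN1, a synaptic adhesion protein, CDK13, a kinase of the RNA polymerase II tail, ZBTB7B, a zinc finger transcription factor, MAP3K9, a kinase upstream of JNK, and BLOC1S3, a subunit of a complex that forms lysosome-related organelles. The NRG2 region, chr5:139847563-139848768 with its position 1 base past the stop codon, had fold enrichments of 24.6, 22.1, 23.9, 36.8 and 20.6 in T24 replicates 1 to 5 and of 35.1, 38.5, 36.3, 33.9 and 37.7 in T24R2 replicates 1 to 5. The GFOD1 region, chr6:13364158-13365726, had 22.8, 25.9, 26.5, 28.9 and 24.8 in T24 and 25.5, 20.6, 21.5, 36.0 and 28.9 in T24R2. The CDK13 region, chr7:40094074-40095273, had 29.2, 22.6, 20.4, 29.3 and 16.7 in T24 and 16.7, 34.7, 21.3, 19.0 and 20.3 in T24R2. The lines overlapped for all 3 genes, and NRG2 was at percentile 98.9 or above in every library.

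T24R2 libraries called more stop-codon regions than T24 libraries. T24 replicates 1 to 5 called 2795, 2437, 2900, 2890 and 2689, a mean of 2742 ± 191 (SD, n = 5), and T24R2 replicates 1 to 5 called 3139, 3256, 3102, 3448 and 3822, a mean of 3353 ± 295 (SD, n = 5). Every T24R2 library was above every T24 library, and the means differed by 611 (exact permutation p = 0.00794, two-sided, the smallest that 5 against 5 allows, and adjusted p = 0.0587 over 37 measures per library). None of the 37 measures had an adjusted p under 0.05, and 0.0587 was the smallest. The lists were longer in T24R2 as a whole, with 23974 ± 3914 regions against 18118 ± 2095 (SD, n = 5). As a share of each library's regions, stop-codon regions made up 14.7, 16.3, 15.8, 14.0 and 15.3% in T24 and 14.3, 14.9, 14.7, 14.1 and 12.5% in T24R2. The lines overlapped in share, with a difference of −1.101 percentage points (exact permutation p = 0.0952, adjusted 0.225). When each list was cut to its 17203 most significant peaks, the number called differed by 219 (exact permutation p = 0.0159). In these lists the direction of the share turned, to 0.570 points (exact permutation p = 0.0794). Without T24 replicate 4 the difference in share was past the threshold at an exact permutation p of 0.0317.

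The strength of the regions as a class had no steady direction between the lines. The median percentile was 50.1 ± 2.89 in T24 and 52.4 ± 2.85 in T24R2 (SD, n = 5, difference 2.29, exact permutation p = 0.230, adjusted 0.387). The difference turned to −2.091 in lists cut to equal length and to −0.636 with −log10 q of at least 10, and was 3.48 without T24 replicate 4 (exact permutation p = 0.0397) and 1.14 without T24R2 replicate 5. The median fold was 7.24 in T24 and 7.18 in T24R2. Summit positions pooled over the libraries chose the regions, so their distance from the stop codon is given with no test. The median distance of a library's own summits was 22.0 ± 16.2 bases downstream in T24 and 8.30 ± 20.5 in T24R2 (SD, n = 5). The difference was −13.7 bases, and −6.13 without T24R2 replicate 2. Single libraries ranged from 22 bases upstream, in T24R2 replicate 2, to 36 bases downstream, in T24 replicate 5.

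Regions downstream of the stop codon ranked higher than upstream ones in T24R2 and about level with them in T24. The median percentile of downstream minus upstream regions was −1.42, −1.29, 2.50, 0.103 and 1.17 points in T24 replicates 1 to 5 and 7.15, 1.91, 3.63, 4.55 and 5.71 points in T24R2 replicates 1 to 5. All T24R2 values were above 0, and only the T24 replicate 3 value lay within their range. The means were 0.213 ± 1.67 and 4.59 ± 1.99 (SD, n = 5), a difference of 4.38 (exact permutation p = 0.0159, adjusted 0.0734 over the 37 measures). Downstream regions stood at 50.3 ± 3.18 in T24 and 54.4 ± 3.21 in T24R2, upstream regions at 50.1 ± 2.7 and 49.8 ± 2.89. This measure was added after values had been seen. The difference was 4.40 in lists cut to equal length (exact permutation p = 0.0238), but 1.99 (exact permutation p = 0.230) when ranks were taken among the regions called in all 10 libraries and 2.26 (exact permutation p = 0.111) in a 100-base window.

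GGACT was less frequent at the summits of T24R2. The share of stop-codon regions with GGACT within 50 bases of the library's summit, sense minus antisense strand, was 15.8, 14.2, 13.6, 14.1 and 13.5 percentage points in T24 replicates 1 to 5 and 12.3, 13.1, 12.7, 12.5 and 11.5 in T24R2 replicates 1 to 5. No T24R2 library reached the lowest T24 library. The means were 14.2 ± 0.954 and 12.4 ± 0.585 (SD, n = 5), a difference of −1.84 (exact permutation p = 0.00794, adjusted 0.0587). Other CDS and 3′UTR regions moved in the same direction, from 9.95 ± 0.896 to 8.50 ± 0.829 (difference −1.45, exact permutation p = 0.0159, adjusted 0.0734). The difference at stop codons was −1.549 in lists cut to equal length (exact permutation p = 0.0238) and −0.7117 over the regions called in all 10 libraries (exact permutation p = 0.389), both alternatives added after the data were seen. For DRACH as a whole the difference was −0.895 (22.8 ± 1.41 in T24, 21.9 ± 1.05 in T24R2, SD, n = 5, exact permutation p = 0.270, adjusted 0.428). It turned to 0.0811 in lists cut to equal length, and was −1.401 without T24 replicate 1, −0.417 without T24 replicate 3 and −0.546 without T24R2 replicate 1.

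**Figure D3:**
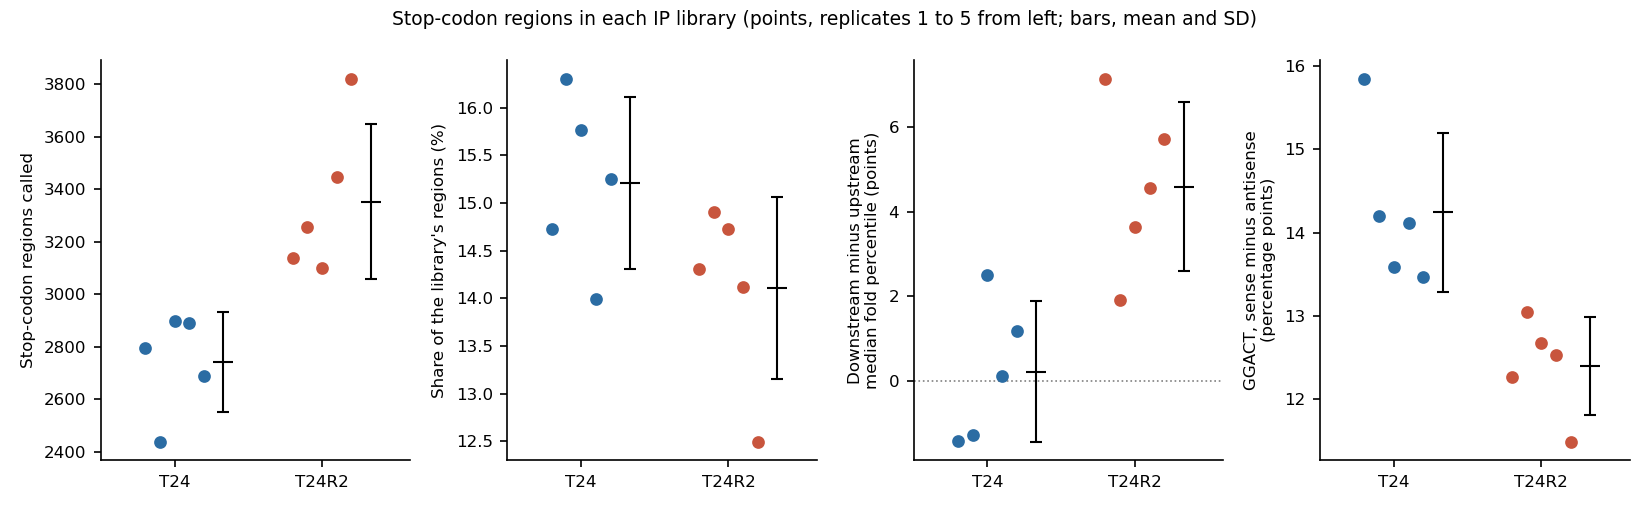
Values of the stop-codon regions in each IP library of T24 (blue) and T24R2 (red): how many were called, their share of the library's regions, the median fold percentile of downstream minus upstream regions, and the share with GGACT near the summit on the sense minus the antisense strand, with mean and SD (n = 5). The axes do not start at 0, and the lines do not overlap in the number called and in the GGACT value.

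Single regions could be compared by presence in 5 against 5 libraries. At Fisher's exact p under 0.05 (two-sided), 367 of the 4390 stop-codon regions (8.36%) differed in presence, where 9.21% of all regions did. Of these, 294 were called more often in T24R2 (6.70%, against 7.11% of all regions) and 73 more often in T24 (1.66%, against 2.09%). After Benjamini-Hochberg adjustment over all regions 0 passed 0.05, where 0% of all regions did, since the smallest adjusted p, that of 5 against 0 libraries, was 0.195. The counts of single regions that follow are therefore descriptions.

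Every T24R2 library but no T24 library had a peak at 118 stop-codon regions (2.69%, against 3.02% of all regions), and every T24 library but no T24R2 library at 52 (1.18%, against 1.05%). In lists cut to equal length the counts were 52 in T24R2 and 50 in T24. With a peak cover of at least 50% of the region they were 145 and 26. The lists hold no input counts, so a peak missing for want of transcript and one missing for want of methylation cannot be told apart, nor can fewer cells with the mark and less marked RNA per cell. As the nearest guide, another exonic region of the same gene was called in all 10 libraries for 15 of the 118 T24R2 genes and for 1 of the 52 T24 genes. For 38 and 22 of them the gene had no other region in the exons of its canonical transcript. For 47 and 26 its other such regions were also absent from the other line. For the remaining 33 and 4, which include the genes with a region in all 10 libraries, at least 1 was called in the other line. The share of all genes with a stop-codon region that have such a second region is not given here. Intronic regions and those in exons of other transcripts were not counted.

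The 15 T24R2 genes with such a second region were CASZ1, CNOT4, ESF1, ITPRID2, MACO1, PCDHB14, PCLO, PKD1, SENP6, SNAI2, TAB2, TAOK3, TMEM120B, TNC and VCAN, listed after their values were seen. Several of these regions were weak, and TNC, which encodes the matrix protein tenascin C, had fold enrichments of 2.35, 3.84, 2.73, 2.50 and 2.28 in T24R2 replicates 1 to 5. CASZ1, a zinc finger transcription factor, had the highest mean percentile of the 15, at 66.4, with fold enrichments of 7.48, 8.42, 7.37, 10.2 and 10.8. The single T24 gene was ADAMTS12, a secreted metalloproteinase, with fold enrichments of 3.96, 7.25, 5.82, 4.73 and 3.67 in T24 replicates 1 to 5 at a position 1 base before the stop codon.

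Of the line-specific stop-codon regions, the 8 of each line with the highest lowest percentile were picked for their strength and are described here. In T24R2 they were in KCTD15, a BTB-domain protein, KCNK3, a potassium leak channel, LDLRAD4, an inhibitor of TGF-beta signalling, SLC9A9 and SLC9A2, both sodium/proton exchangers, FAM124A, WNT9A, a Wnt ligand, and MEFV, which encodes pyrin. The KCTD15 region, chr19:33812622-33814452, had fold enrichments of 18.1, 23.7, 14.5, 24.6 and 20.5 in T24R2 replicates 1 to 5. The LDLRAD4 region, chr18:13645044-13646168, had 14.4, 28.3, 20.1, 27.2 and 28.3. The SLC9A9 region, chr3:143266583-143266858, the only one in the exons of its canonical transcript, had 15.1, 20.8, 11.2, 17.2 and 16.0. No T24 library had a peak at any of these, and KCTD15 was at percentile 94.6 or above in all 5 T24R2 libraries.

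In T24 they were in TLR2, a Toll-like receptor, NRXN3, a neurexin, IFNLR1, the interferon lambda receptor, GBGT1, a glycosyltransferase, GRIN2D, a subunit of the NMDA receptor, CLDN3, a tight junction claudin, GIPR, a receptor of an incretin hormone, and CAVIN2, a protein of caveolae. The TLR2 region, chr4:153704859-153705436, had fold enrichments of 21.1, 17.1, 18.6, 13.9 and 12.7 in T24 replicates 1 to 5. The GBGT1 region, chr9:133153189-133154116, had 27.2, 22.9, 17.9, 32.3 and 11.6. The CLDN3 region, chr7:73769098-73769516, with its position 1 base before the stop codon, had 14.6, 11.99, 10.4, 18.2 and 15.5. No T24R2 library had a peak at any of these, and the presence of NRXN3, CLDN3 and CAVIN2 lost its unadjusted p under 0.05 when peaks had to cover 50% of the region.

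Among regions called in every library, few changed rank. The 1967 stop-codon regions with a peak in all 10 libraries were tested by limma on their percentile among the 9577 such regions, with adjustment over all 9577. Of the 1967, 7 passed an adjusted p of 0.05 (0.356%, where 0.345% of all regions did): 5 were higher in T24R2 (0.254%, against 0.188%) and 2 lower (0.102%, against 0.157%). On log2 fold centred on the library median limma called 18 of the 1967 (0.915%, against 0.856% of all regions), 15 of them higher in T24R2 (against 0.533% of all regions). On quantile-normalized log2 fold it called 15 (0.763%, against 0.783%), 12 of them higher (against 0.449%). At an unadjusted p under 0.05, 13.4% of the stop-codon regions and 13.5% of all regions passed. The median difference was 0.983 points for stop-codon regions and 0.0700 points for all regions, and 53.2% and 50.2% had a higher mean in T24R2.

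The regions of AFAP1L2 and PAQR7 fell in T24R2. AFAP1L2 encodes an adaptor protein, and its region at chr10:114295634-114296112, 71 bases downstream of the stop codon, had fold enrichments of 26.6, 18.2, 29.8, 38.9 and 13.7 in T24 replicates 1 to 5 and of 5.32, 6.65, 4.61, 6.82 and 6.45 in T24R2 replicates 1 to 5. The lines did not overlap: its percentile was 96.7 ± 5.00 in T24 and 19.0 ± 3.48 in T24R2 (SD, n = 5), a difference of −77.6 points (95% interval −100.2 to −55.1, limma adjusted p = 0.00476). On the log2 scale, centred on the library median, the difference was −2.11 ± 0.25 (SE, limma adjusted p = 0.000179). PAQR7, a membrane progesterone receptor, had fold enrichments of 14.9, 10.5, 17.1, 18.0 and 12.9 in T24 and of 6.47, 6.61, 6.45, 5.97 and 5.28 in T24R2, at chr1:25862446-25863690 and 88 bases upstream of its stop codon. The difference of −62.3 points (95% interval −86.5 to −38.1, limma adjusted p = 0.0243) had no overlap between lines. An exon of another gene, ENSG00000236528, was present at the PAQR7 position.

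The regions of 5 genes rose in rank in T24R2. ADAMTS1, a secreted metalloproteinase, had fold enrichments of 5.86, 7.43, 9.07, 10.7 and 5.68 in T24 replicates 1 to 5 and of 18.6, 20.5, 20.8, 19.6 and 20.8 in T24R2 replicates 1 to 5, at chr21:26837400-26838285. TRPS1, a GATA-type transcriptional repressor, had 6.71, 4.68, 5.63, 6.40 and 6.62 in T24 and 14.6, 26.4, 22.9, 20.8 and 15.4 in T24R2, at chr8:115413827-115414858. SP5, a transcription factor of the Sp family, had 4.71, 6.03, 6.56, 4.57 and 7.43 in T24 and 17.7, 20.5, 13.1, 14.1 and 13.5 in T24R2, at chr2:170716175-170717761. Every T24R2 library was above every T24 library for these 3 genes.

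ZDHHC14, a palmitoyltransferase, had fold enrichments of 6.71, 4.11, 5.63, 6.40 and 6.62 in T24 and of 22.6, 30.6, 10.7, 12.1 and 24.9 in T24R2, at chr6:157672625-157673912. THSD1, a membrane protein with a thrombospondin repeat, had 10.1, 4.75, 5.23, 8.71 and 4.10 in T24 and 26.6, 12.3, 17.5, 14.6 and 25.8 in T24R2, at chr13:52377170-52378885. The groups did not overlap for either gene. The differences in percentile were 67.3 points for TRPS1 (limma adjusted p = 0.0101), 62.8 for ZDHHC14 (0.0260), 59.8 for SP5 (0.0309), 58.6 for THSD1 (0.04996) and 54.4 for ADAMTS1 (0.0243), with standard errors between 10.2 and 12.7. Single libraries decided most of these calls, while AFAP1L2 kept its call without any 1 library. Without any 1 of the 5 T24R2 libraries the adjusted p was between 0.0591 and 0.108 for SP5, between 0.0620 and 0.08995 for ADAMTS1 and between 0.0897 and 0.129 for THSD1. TRPS1 had 0.05015 without T24R2 replicate 2. ZDHHC14 was past 0.05 without T24R2 replicates 1, 2 or 5 (0.0924, 0.101 and 0.0786) and T24 replicates 3 or 4 (0.0636 and 0.0575). Leaving out a T24 library also ended the calls of SP5 (replicate 1, 3 or 4, 0.0551 to 0.0701) and THSD1 (replicates 2 to 5, 0.0701 to 0.114). PAQR7 was between 0.0532 and 0.0775 without T24 replicate 3, 4 or 5 or T24R2 replicate 2, 4 or 5, and had a difference of −40.0 points (adjusted p = 0.180) when the peak nearest to the region's position was taken in place of the strongest. THSD1 had 0.0549 in lists cut to equal length. With percentiles over all regions of a library ADAMTS1 and PAQR7 had 0.0592 and THSD1 had 0.0839, and with peaks of −log10 q of at least 10, or in lists cut to equal length, AFAP1L2 was not called in all 10 libraries and so had no test. The T24 values of TRPS1 and ZDHHC14 were the same in replicates 1, 3, 4 and 5, and in each library between 76.7 and 90.6% of stop-codon regions shared their fold value with another region.

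**Figure D4:**
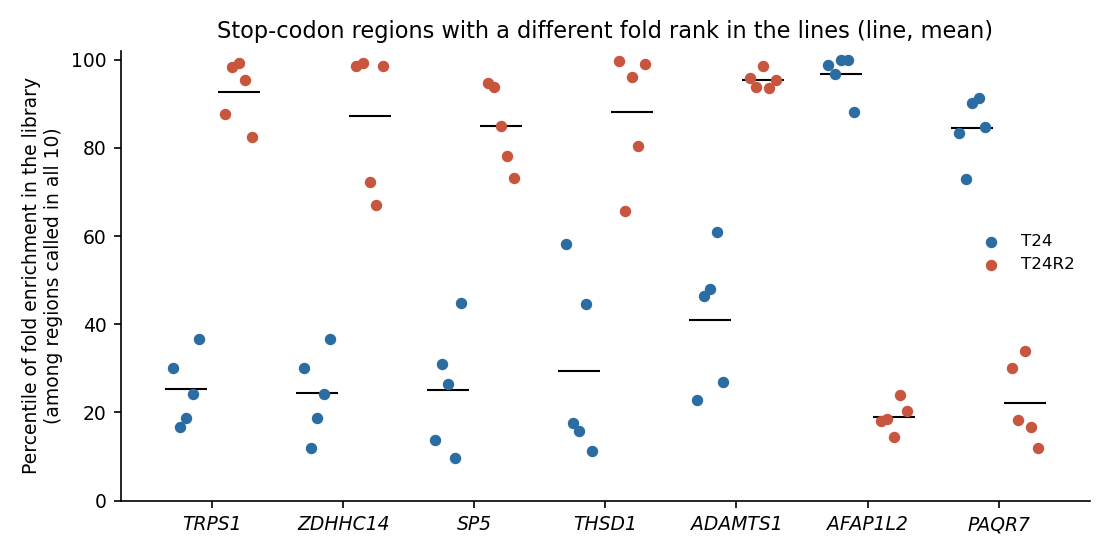
Percentile of fold enrichment, among the regions called in all 10 libraries, of the 7 stop-codon regions that passed adjusted p 0.05, with 1 point per library (T24 blue, T24R2 red) and a line at the mean of 5. AFAP1L2 falls from a mean of 96.7 to 19.0, and no gene's points overlap between lines.

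The 6 gene lists held 58 stop-codon regions, of which 36 were called in all 10 libraries. Of all stop-codon regions 44.8% were called in all 10, and of all regions 21.9%. For scale, 4370 transcripts had a region at the stop codon and 4938 had regions only elsewhere. None of the 36 passed limma's adjusted p of 0.05 (0 calls on ranks and 0 on log2 fold, against 0.345% of all regions on ranks), and 6 had an unadjusted p under 0.05, where 13.5% of all regions did. The genes named are up to 4 in each list with the largest difference in calls, and YTHDF2, YTHDF3, ABCC1, LRRC8D, PIK3CA, CCND1, MYC and the markers were added after their values were seen. The differences below are in percentile points among the regions called in all 10 libraries, where the median of all regions was 0.0700.

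The study list holds 15 transcripts that the study chose on these samples, so its members are not independent evidence of a direction. Of its 15 genes 12 had an exonic region, and 3 had one at the stop codon: SLC7A11, ERCC1 and PLA2R1. SLC7A11 encodes the cystine/glutamate antiporter, and its stop-codon region at chr4:138171862-138172112 lay 16 bases downstream of the stop codon. It had fold enrichments of 3.66, 3.99 and 5.38 in T24 replicates 2, 4 and 5, no peak in T24 replicates 1 and 3, and 3.41, 5.45, 3.21, 2.73 and 2.63 in T24R2 replicates 1 to 5. The lines overlapped in presence (Fisher's exact p = 0.444) and in fold, and the percentile was 15.8 ± 11.9 over 3 T24 libraries and 7.35 ± 8.53 over 5 T24R2 libraries (SD). The study reported lower SLC7A11 methylation in T24R2 at the 5′UTR, which is a different site, and an unchanged peak at the 3′UTR. ERCC1, a nuclease subunit of nucleotide excision repair, was called in all 10 libraries, with fold enrichments of 2.19, 4.71, 10.2, 3.79 and 5.76 in T24 and 4.42, 6.41, 4.17, 5.74 and 11.7 in T24R2, which overlapped. The position of this region also lay within 200 bases of the POLR1G stop codon. Since the peaks carry no strand, these values can belong to either gene. PLA2R1, a phospholipase A2 receptor, was called in T24 replicate 2 at 6.68 and in T24R2 replicates 3 to 5 at 5.43, 8.32 and 5.28.

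All 21 m6A writers, readers and erasers had an exonic region and 9 had one at the stop codon, 5 of them in all 10 libraries: METTL14, WTAP and ZC3H13 of the writer complex and the readers YTHDF2 and YTHDF3. Of the 9, 2 were called in more T24R2 than T24 libraries, the reader YTHDF1 (3 in T24 against 5) and the writer subunit VIRMA (2 against 4), and 2 in fewer, the reader YTHDC2 (2 against 1) and IGF2BP2 (1 against 0). For none was Fisher's exact p under 0.05, though with peaks of −log10 q of at least 10 the VIRMA difference had a Fisher's exact p of 0.0476. The median difference of the 5 was 7.50 points. YTHDF2 had fold enrichments of 3.10, 3.58, 5.18, 3.39 and 3.44 in T24 and 5.75, 6.21, 5.29, 6.25 and 5.12 in T24R2, where T24 replicate 3 lay within the T24R2 range (difference 10.3 points, limma adjusted p = 0.322). YTHDF3 had 7.48, 4.27, 10.97, 7.64 and 9.73 in T24 and 16.4, 9.22, 12.02, 10.7 and 13.8 in T24R2, with overlap (difference 26.6 points, limma adjusted p = 0.409).

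Of 36 cisplatin response genes, which cover platinum transport, glutathione and thioredoxin metabolism and DNA repair, 22 had an exonic region and 12 one at the stop codon. Of these 12, 6 were called in all 10 libraries, the other 6 in more T24R2 than T24 libraries (as were 52.6% of all regions and 42% of the stop-codon regions), and 0 had a Fisher's exact p under 0.05, against 9.21% of all regions. The 6 called more often were GCLC, ABCC3, ATP7A, BRCA1, ERCC2 and HMOX1. GCLC, the catalytic subunit of glutamate-cysteine ligase, was called in T24 replicates 1 and 5, at 7.92 and 7.91, and in all 5 T24R2 libraries, at 10.4, 7.65, 6.48, 8.45 and 7.33 (Fisher's exact p = 0.167). With a cover of 50% of the region GCLC had peaks in every T24R2 library and in 0 of T24 (Fisher's exact p = 0.00794). ABCC3, an efflux transporter, was called in 2 T24 libraries, at 7.24 and 5.42, and in 5 T24R2 libraries, at 3.55 to 7.84, and the copper transporter ATP7A in 3 and 5. The repair gene BRCA1 was called in 0 and 2. The efflux transporter ABCC1 had fold enrichments of 5.31, 3.58, 8.31, 4.43 and 3.79 in T24 and 10.7, 9.13, 8.47, 10.3 and 7.08 in T24R2 (difference 31.9 points, limma adjusted p = 0.189). LRRC8D, a subunit of the volume-regulated anion channel, had 12.6, 8.87, 17.4, 15.2 and 12.7 in T24 and 8.72, 7.26, 4.89, 8.90 and 15.5 in T24R2 (difference −34.7 points, limma adjusted p = 0.242). The lines overlapped for both genes, and the median difference of the 6 was 2.97 points. The region counted for ERCC5 is also that of the BIVM-ERCC5 readthrough transcript.

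Of the 15 apoptosis and p53 genes 10 had an exonic region and 6 one at the stop codon, 5 of them in all 10 libraries, with a median difference of 4.71 points. BBC3, a BH3-only activator of apoptosis, had fold enrichments of 5.30, 19.4, 11.7, 9.80 and 9.65 in T24 and 30.8, 29.9, 16.7, 25.3 and 14.5 in T24R2, and T24 replicate 2 lay within the T24R2 range (difference 33.6 points, limma adjusted p = 0.183). PMAIP1, another BH3-only protein, had 6.17, 9.09, 10.4, 10.8 and 8.88 in T24 and 12.1, 13.1, 11.1, 12.5 and 12.5 in T24R2, with no overlap in fold (difference 18.6 points, limma adjusted p = 0.499). CASP8, the initiator caspase of death receptors, was called in T24R2 replicates 2, 3 and 5 and nowhere in T24 (Fisher's exact p = 0.167), and BCL2L1 in all 10 (difference 4.71 points, limma adjusted p = 0.772).

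Of the 25 bladder cancer drivers 20 had an exonic region and 12 one at the stop codon, 7 of them in all 10 libraries, with a median difference of 1.43 points. The histone demethylase gene KDM6A was called in 3 libraries, all T24R2 (Fisher's exact p = 0.167), the transcription factor KLF5 in 2 and 4, the histone methyltransferase KMT2C in 4 and 5 and the small GTPase HRAS in 4 and 5. PIK3CA, the catalytic subunit of phosphoinositide 3-kinase, had the highest mean percentile of the listed genes, with fold enrichments of 25.5, 15.3, 24.2, 22.0 and 15.7 in T24 and 12.5, 24.6, 9.75, 23.7 and 10.2 in T24R2 (overlapping, difference −17.8 points, limma adjusted p = 0.340). HRAS and the cyclin gene CCND1 stood near the bottom, with mean percentiles of 1.98 over 9 libraries and 3.33 over 10.

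Of the 26 short-lived regulators 25 had an exonic region and 16 one at the stop codon. Of these 16, 12 were called in all 10 libraries, with a median difference of 5.41 points. ATF3, a stress-induced transcription factor, and SNAI2, a repressor of epithelial genes, were each called in 5 T24R2 and 0 T24 libraries (Fisher's exact p = 0.00794, adjusted 0.195), the 2 of 16 with more T24R2 calls at p under 0.05, against 7.11% of all regions. ATF3 had fold enrichments of 3.00, 7.86, 6.45, 13.4 and 6.29 in T24R2 replicates 1 to 5. SNAI2 had 6.21, 3.81, 6.36, 3.596 and 7.46. With a cover of 50% of the region each was called in 3 more T24R2 than T24 libraries (Fisher's exact p = 0.167). SNAI2 had another exonic region called in all 10 libraries and ATF3 did not. ID1 had calls in 2 libraries of T24 and 5 of T24R2, and FOS in 4 and 5. With −log10 q of at least 10 FOS was called in 5 more T24R2 than T24 libraries (Fisher's exact p = 0.00794), and with a cover of 50% of the region in 4 more (Fisher's exact p = 0.0476). With −log10 q of at least 10 the difference was 4 libraries for ID1 and GCLC (Fisher's exact p = 0.0476) and 3 for SNAI2 (Fisher's exact p = 0.167), and for ID1 it was also 4 in lists cut to equal length. MYC, called in all 10, had 3.95, 4.70, 4.44, 4.47 and 4.03 in T24 and 3.68, 3.99, 3.78, 5.07 and 5.19 in T24R2, which overlapped. Leaving out 1 library put Fisher's exact p of presence at 0.0476 for GCLC (T24 replicate 1 or 5), ABCC3 (T24 replicate 1 or 4), ID1 (T24 replicate 3 or 5), CASP8 (T24R2 replicate 1 or 4) and KDM6A (T24R2 replicate 3 or 4).

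Among the marker genes 4 epithelial ones had a stop-codon region. FOXA1, a luminal transcription factor, had fold enrichments of 6.52, 5.34, 6.73, 8.73 and 6.12 in T24 and 13.6, 15.2, 9.45, 21.7 and 17.0 in T24R2, with no overlap between lines (difference 51.1 points, limma adjusted p = 0.0575, and 0.0345 on log2 fold). GATA3 had calls in 3 libraries of T24 and 0 of T24R2, KRT18 in 0 and 2 and PPARG in 0 and 1. The mesenchymal marker CDH2 was called in all 10 libraries (difference 1.20 points, limma adjusted p = 0.963).

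**Figure D5:**
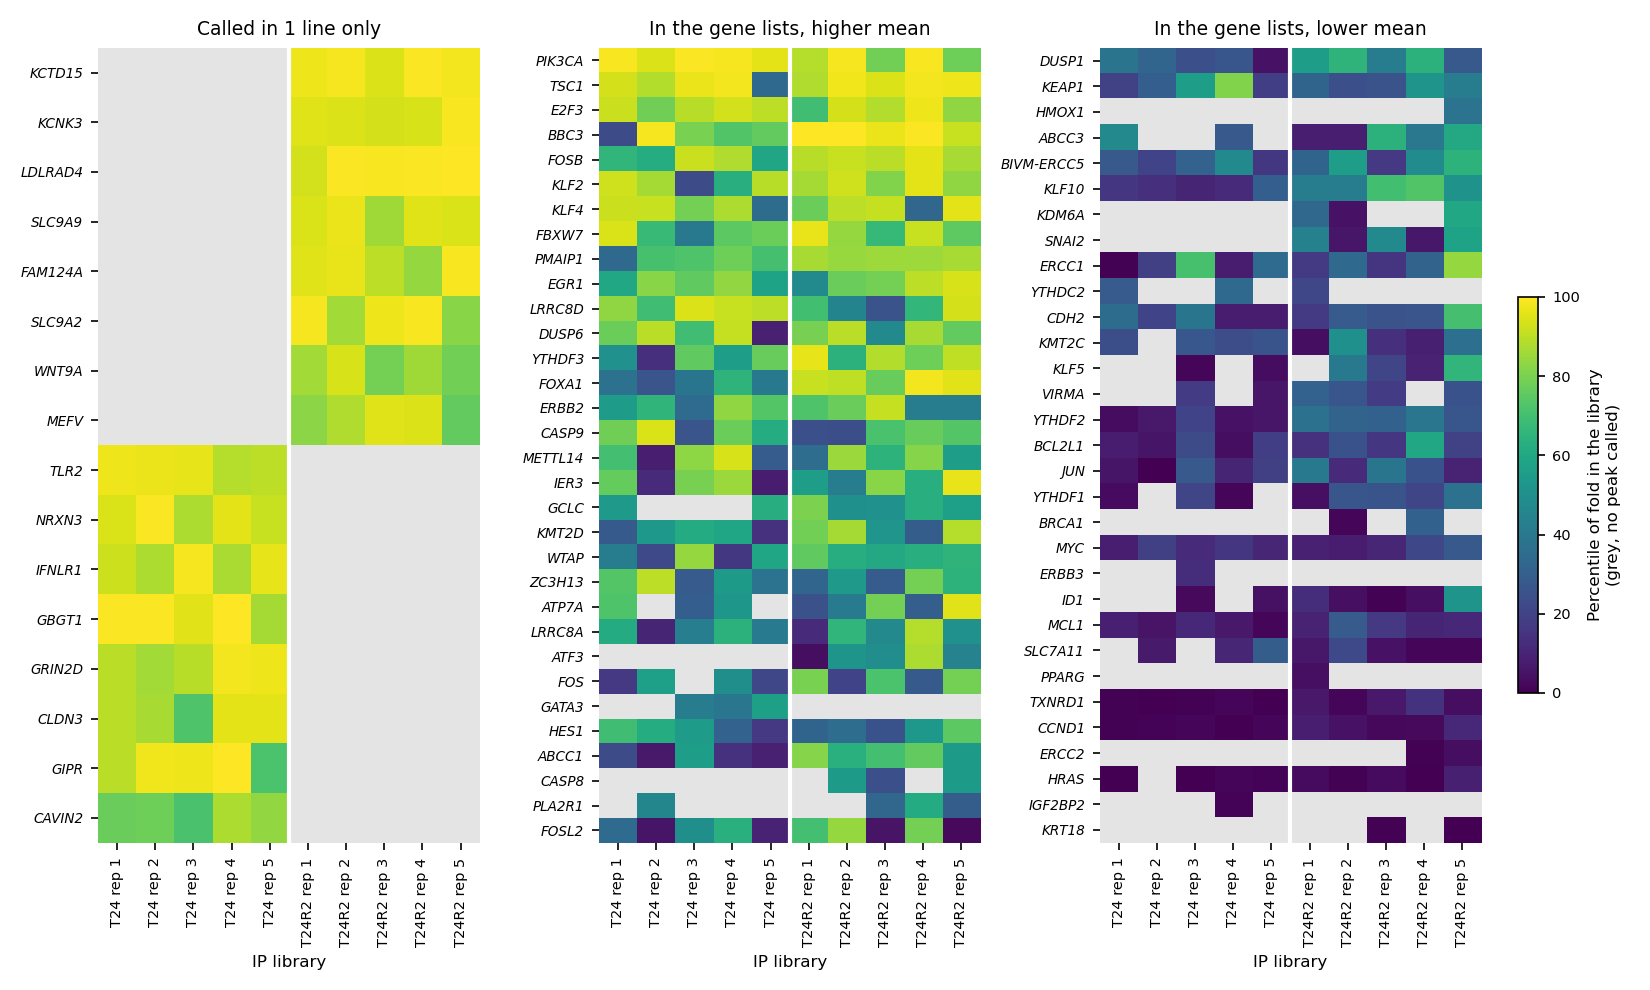
Percentile of fold enrichment within the library of the named line-specific stop-codon regions (left) and of those in the gene and marker lists, ordered by mean percentile (middle and right), in the 10 IP libraries, where grey means that no peak was called. PIK3CA stands at the top of the listed genes and ATF3 and SNAI2 are grey in all 5 T24 libraries.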

How the data were processed

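MeRIP-seq of T24 and T24R2 was deposited as 1 MACS2 peak list per IP library and a merged list of regions. According to the study's methods and the submitters' processing notes, the authors aligned reads to hg38 with STAR 2.7.0, kept unique, non-duplicate reads with SAMtools 1.10 and called peaks per library with MACS2 3.0.0a6, without model building and with an extension size of 100. The deposited columns hold fold enrichment (a ratio of IP over local input), significance as −log10 of p and of q, and a score the authors' caller derived from q.

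Regions were placed by summit in GENCODE 44 (hg38), and 25 of 129 chromosome and contig names were found there. A library had a region when a peak overlapped it by at least 1 base. Values per library were compared by exact permutation (252 assignments) or sign-flip tests, presence by Fisher's exact test and ranks by limma 3.58.1 (R 4.3.3, eBayes with trend), with Benjamini-Hochberg adjustment. The limma test of ranks and the count of line-specific calls were tried on simulated data, and the other steps were not. Named regions are the changed, the line-specific (the 8 with the highest lowest percentile), the 8 strongest and those in listed genes. Replicate numbers were taken from titles. Alternatives cover peak filters, windows, ranks, motif, block and leave-outs. The regions and gene lists were chosen with earlier results of these data known.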

Additional observations from a re-analysis of the deposited data

Results flagged for a closer look

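In 14 of 87 groups of 5 libraries 1 library stood apart by Dixon's test (critical value 0.71), where chance gives about 5% of groups. T24R2 replicate 5, the longest list, held 242 stop-codon regions that no other library called, against 6 to 66 in each of the other libraries. Among line-specific regions in T24R2, replicate 5 was high for KCNK3 (percentile 99.16), replicate 1 low for LDLRAD4 (93.22) and replicate 3 low for SLC9A9 (85.92).

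Among the strongest regions, T24 replicate 1 (98.37) and T24R2 replicate 2 (97.19) were low for GFOD1, T24 replicate 4 was low for LRFN1 (92.48), T24 replicate 5 for ZBTB7B (90.4) and T24 replicate 3 for BLOC1S3 (82.45). Among listed genes, T24R2 replicate 2 was high for SLC7A11 (22.11), T24R2 replicate 5 for ERCC1 (84.0) and ID1 (51.92), and T24R2 replicate 4 for BCL2L1 (59.96), while T24 replicate 1 was low for PMAIP1 (34.25). These are percentiles of fold within the library, and why single libraries stood apart was not tested.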

How the results depend on the processing

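Of 954 alternative values, 827 kept their direction and side of the threshold, 61 lost it, 21 gained it, 41 moved and 4 turned direction. Values are for stop-codon regions, differences are T24R2 minus T24 unless stated, and p is from exact tests. The causes were not tested.

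Lists cut to equal length turned the share of regions to 0.570 (p = 0.0794), the median fold percentile to −2.091 and the DRACH difference to 0.0811, and gave 233 regions at Fisher p under 0.05, 52 only in T24R2 and 2 rank calls, 2 higher and 0 lower. With −log10 q of at least 10 the median percentile turned to −0.636 and the percentile over other CDS and 3′UTR regions was 0.293. At that setting 82 regions were only in T24R2 and 27 only in T24, and there was 1 rank call, 1 higher and 0 lower. A 300-base window gave 4.375 over other regions. A 100-base window gave 0.810, 209 at Fisher p under 0.05, 64 only in T24R2 and 35 only in T24. A cover of 50% gave 145 only in T24R2 and 26 only in T24. Ranks among regions called in all 10 libraries gave 0.130 over other regions. GGACT in place of DRACH gave −1.842 (exact permutation p = 0.00794), and −1.549 (exact permutation p = 0.0238) in lists cut to equal length. Rank calls were 18 (15 higher) on log2 fold and 15 (12 higher) on quantile-normalized log2 fold. The count lower in T24R2 was 1 with the nearest peak and 1 with the percentile over all regions of the library.

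Leaving out single libraries gave −1.406 to −0.696 for the share, 1.141 to 3.476 for the median percentile, −1.401 to −0.4165 for DRACH, −20.2 to −6.125 bases for the summit distance, 1 to 8 rank calls, 0 to 5 of them higher and 1 to 3 lower. Without T24 replicate 4 the share (exact permutation p = 0.0317) and median percentile (exact permutation p = 0.0397) passed the threshold.

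Same-numbered libraries did not deviate together: correlations were −0.00252, −0.0357, 0.0436, −0.0125 and 0.112, and only number 5 matched its own number best. With the replicate number as a block the smallest exact p was 0.0625, the regions called per library differed by 611.2 (p = 0.0625), the percentile over other regions was 2.208 (p = 0.25), 0 regions were left at Fisher p under 0.05, and 1 rank call was left, 0 higher and 1 lower. Unknown read depth limits all calls.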
